A study of Mus musculus with 15 samples.

Results

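Complexes II to V of the mitochondrial respiratory chain were followed at the mRNA level through the nuclear genes that encode their subunits and several of their assembly factors. Members were all genes whose mouse symbol is Sdha, Sdhb, Sdhc or Sdhd, begins with Uqcr, begins with Cox and a digit, begins with Atp5, or is Cyc1 or Cycs, with pseudogenes left out. Of the 25700 gene identifiers counted, 57 met the rule with at least 1 read, and 1 further gene, Cox8c, had 0 reads in all 15 libraries. They comprised 4 genes of complex II, 9 of complex III, cytochrome c itself (Cycs), 16 of complex IV, 9 complex IV assembly factors, 16 of complex V, the supercomplex factor Cox7a2l and Atp5s, a distant complex V coupling factor. After a filter on low counts, 54 of the 57 were tested. Cox4i2, Cox6b2 and Cox7b2 did not pass it.

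The RNA came from 3T3-L1 cells, a mouse fibroblast line that becomes adipocyte-like when confluent cultures receive dexamethasone, IBMX and insulin, then insulin alone, then serum medium only. The 5 groups had 3 libraries each: MIGA2-GFP cells, labelled as overexpressing that fusion, at day 6; MIGA2-KO cells, labelled as MIGA2 depleted, at day 6; WT cells at day 6; MIGA2-KO cells at day 0, the start of differentiation; and WT cells at day 0. MIGA2 (mitoguardin 2) is an outer mitochondrial membrane protein that links mitochondria to the endoplasmic reticulum and lipid droplets. The sources used here do not say how the cells were edited, whether they were 1 clone or which promoter drove the fusion. Nothing states that replicates were separate cultures, so p-values measure the spread between these libraries, which may be technical.

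As background, electrons from succinate enter through complex II (succinate dehydrogenase) and pass from ubiquinol through complex III (the cytochrome bc1 complex) and the soluble carrier cytochrome c to complex IV (cytochrome c oxidase), which reduces oxygen. The proton gradient built on the way drives complex V (ATP synthase). All complex II subunits are nuclear genes, while complexes III, IV and V each also hold subunits made from mitochondrial DNA. Differentiating 3T3-L1 cells are known for making more mitochondria and respiratory protein as they fill with lipid.

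The libraries held 10748668 to 26003871 counted reads. Depth went with group: WT day 0 libraries held 19625147 to 26003871, and those of the other groups 10748668 to 13443736. Levels are given as CPM, counts relative to the library total scaled by edgeR's TMM factors, and log2 fold changes come from edgeR's quasi-likelihood test with Benjamini-Hochberg adjustment over 12279 genes at a threshold of 0.05. Miga2 mRNA was at 74.5 and 70.0 CPM in MIGA2-KO day 6 replicates 2 and 3 but at 926 CPM in the library labelled MIGA2-KO day 6 replicate 1, against 145 to 182 CPM in WT day 6 libraries. It was at 155 to 166 CPM in MIGA2-GFP day 6 libraries, within that WT range, and at 17.2 to 22.5 CPM in MIGA2-KO day 0 libraries, against 13.6 to 17.8 CPM in WT day 0 libraries. Miga2 mRNA, as counted on the mouse gene, was therefore not higher in the fusion cells and not lower in the day 0 knockout cells. Whether mRNA of the fusion is counted on that gene was not tested. The directions below rest on the labels. An edited gene can still give an mRNA, so its level does not measure the protein.

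Replicate 1 of both WT groups stood apart for these genes. In WT day 6 replicate 1, 51 of the 54 tested members were below the group mean, with a median deviation of −0.39 on the log2 scale. In WT day 0 replicate 1, 51 of 54 were above it, with a median of 0.52. The library labelled MIGA2-KO day 6 replicate 1 was the highest of its group for 41 members, with a median of 0.14. Deviations of single genes within WT groups also ran with transcript length: the correlation across all tested genes was −0.59, 0.44 and 0.51 in WT day 0 replicates 1 to 3 and 0.47, −0.31 and −0.31 in WT day 6 replicates 1 to 3. Members are short, with a median transcript of 1231.5 bases against 3386 for all tested genes. Each count below is therefore also given without these 3 libraries and with offsets for GC content and length where the value moves. The offsets were fitted to each library's deviation from the mean of all 15 libraries, not within groups. They can therefore also take out real differences between groups that run with GC content or length. These 3 libraries stand apart on the members themselves. Leaving them out was therefore bound to raise most WT day 6 levels and to lower most WT day 0 and MIGA2-KO day 6 levels. Counts from that run are no separate support. Within the MIGA2-GFP and MIGA2-KO day 0 groups the libraries were far closer, with a chi-square per degree of freedom between pairs of 1.74 to 2.89, against 9.91 to 131 between WT replicates.

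**Figure D1:**
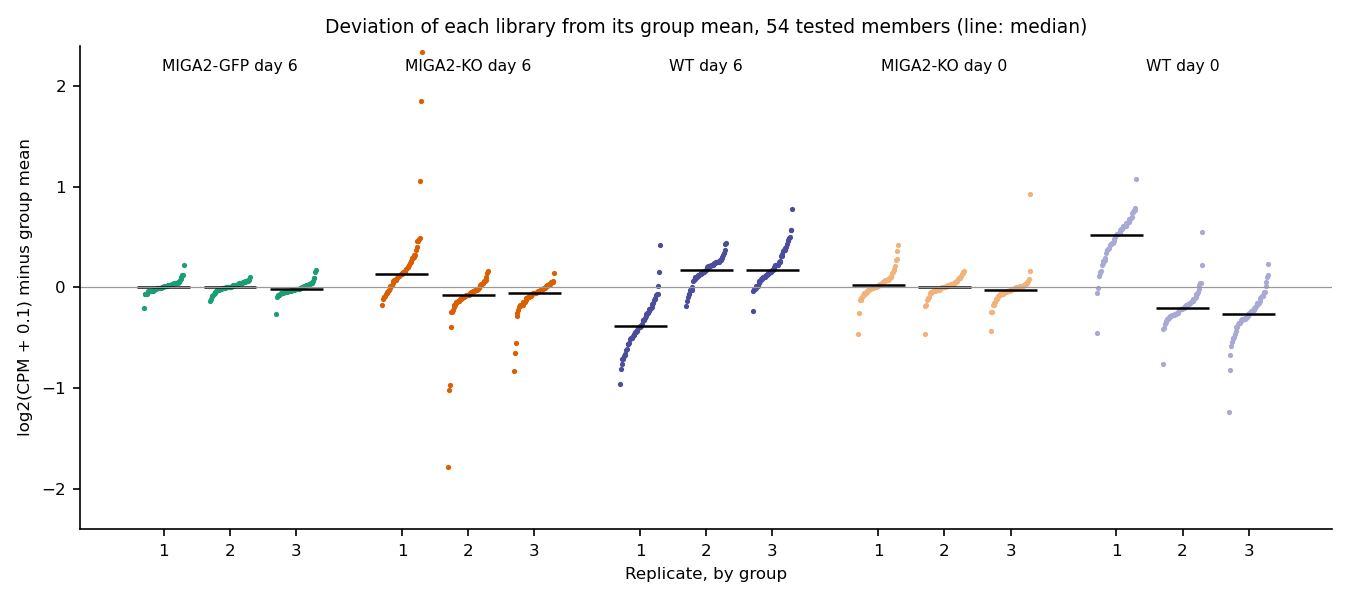
Each point is 1 of the 54 tested members, plotted as log2(CPM + 0.1) minus its group mean, for every replicate of the 5 groups, with the median as a line. WT day 6 replicate 1 lies at a median of −0.39 and WT day 0 replicate 1 at 0.52, while MIGA2-GFP day 6 and MIGA2-KO day 0 libraries lie within 0.03 of 0.

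Most of these mRNAs were higher in WT cells after differentiation. At day 6, 49 of the 54 tested members were higher than at day 0 and 0 were lower, where 31.7% of all tested genes were higher and 33.1% lower. The median log2 fold change of the members was 1.68, against −0.04 for all genes. All members together made up 19009, 27888 and 29201 CPM in WT day 6 replicates 1 to 3, against 9382, 5940 and 5678 CPM in WT day 0 replicates 1 to 3. Every WT day 6 library was thus above every WT day 0 library, and replicate 1 was the lowest at day 6 and the highest at day 0. Without the 3 libraries named above, 54 of 55 tested members were higher and the median was 2.17. With GC and length offsets, 47 were higher and 3 lower, and the median was 1.19. Since these are bulk samples, fewer cells of a type and less RNA per cell cannot be told apart. The white adipocyte markers (Adipoq, Fabp4, Plin1, Cidec, Lipe, Pparg and Cebpa) moved with them, all 7 rising, to a summed 24749 to 32229 CPM in WT day 6 libraries, against 51.2 to 72.0 CPM in WT day 0 libraries. Preadipocyte and fibroblast markers (Dlk1, Pdgfra, Pdgfrb, Thy1, Col1a1 and Col3a1) fell, 6 of 6, to a summed 5223 to 5702 CPM in WT day 6 libraries, against 15970 to 20663 CPM in WT day 0 libraries. The part of either list in the result was not tested.

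Cycs, the electron carrier between complexes III and IV, was at 205, 229.9 and 208 CPM in WT day 6 libraries, against 25.9, 19.1 and 19.97 CPM in WT day 0 libraries. The groups were far apart, with a log2 fold change of 3.31 ± 0.18 (SE, n = 3 each, edgeR quasi-likelihood adjusted p = 6.2e-10). All 9 genes of complex III rose, with a median of 2.44. Uqcr11, a small accessory subunit with the highest level per kb of exon in the complex, was at 315, 653 and 816 CPM in WT day 6 libraries, against 133, 72.5 and 48.7 CPM in WT day 0 libraries. Its log2 fold change was 2.81 ± 0.33 and fell to 1.93 with GC and length offsets.

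All 4 complex II genes rose in WT cells, with a median of 1.63. Sdha, the flavoprotein that oxidises succinate, was at 547, 531 and 544 CPM in WT day 6 libraries, against 177, 173 and 185 CPM in WT day 0 libraries. These values barely varied within a group, and the log2 fold change was 1.60 ± 0.08 (edgeR quasi-likelihood adjusted p = 2.6e-10). Of the 13 tested complex IV subunits 12 rose, with a median of 2.13. Cox7b, a small subunit encoded on the X chromosome, was at 580, 816 and 695 CPM in WT day 6 libraries, against 213, 122 and 131 CPM in WT day 0 libraries. Cox6a1, the widely expressed form of subunit VIa and the member with the highest level per kb of exon in complex IV, rose by a log2 fold change of 2.77 ± 0.30.

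Assembly factors rose less in median. All 9 passed in the WT comparison, with a median log2 fold change of 1.06 and a range of 0.81 to 1.69. Cox16, which takes part in building the copper site of subunit II, was at 80.0, 103 and 106 CPM in WT day 6 libraries, against 38.3, 25.4 and 25.9 CPM in WT day 0 libraries. About 56.8% of its annotated exon is shared with a gene on the same strand, so its counts are uncertain. Of the 16 complex V genes 14 rose, with a median of 1.40. Atp5b, the catalytic beta subunit, had the highest level per kb of exon in complex V, with 2613, 3052 and 3112 CPM in WT day 6 libraries, against 867, 679 and 703 CPM in WT day 0 libraries. Its log2 fold change was 1.96 ± 0.11. The 5 members that did not pass were Cox6a2, Cox7a2l, Atp5g2, Atp5l and Atp5s. Atp5l (subunit g) was counted at only 3.71 to 4.76 CPM in WT day 6 libraries, and 15 annotated pseudogenes carry near-identical sequence, so its level is uncertain.

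**Figure D2:**
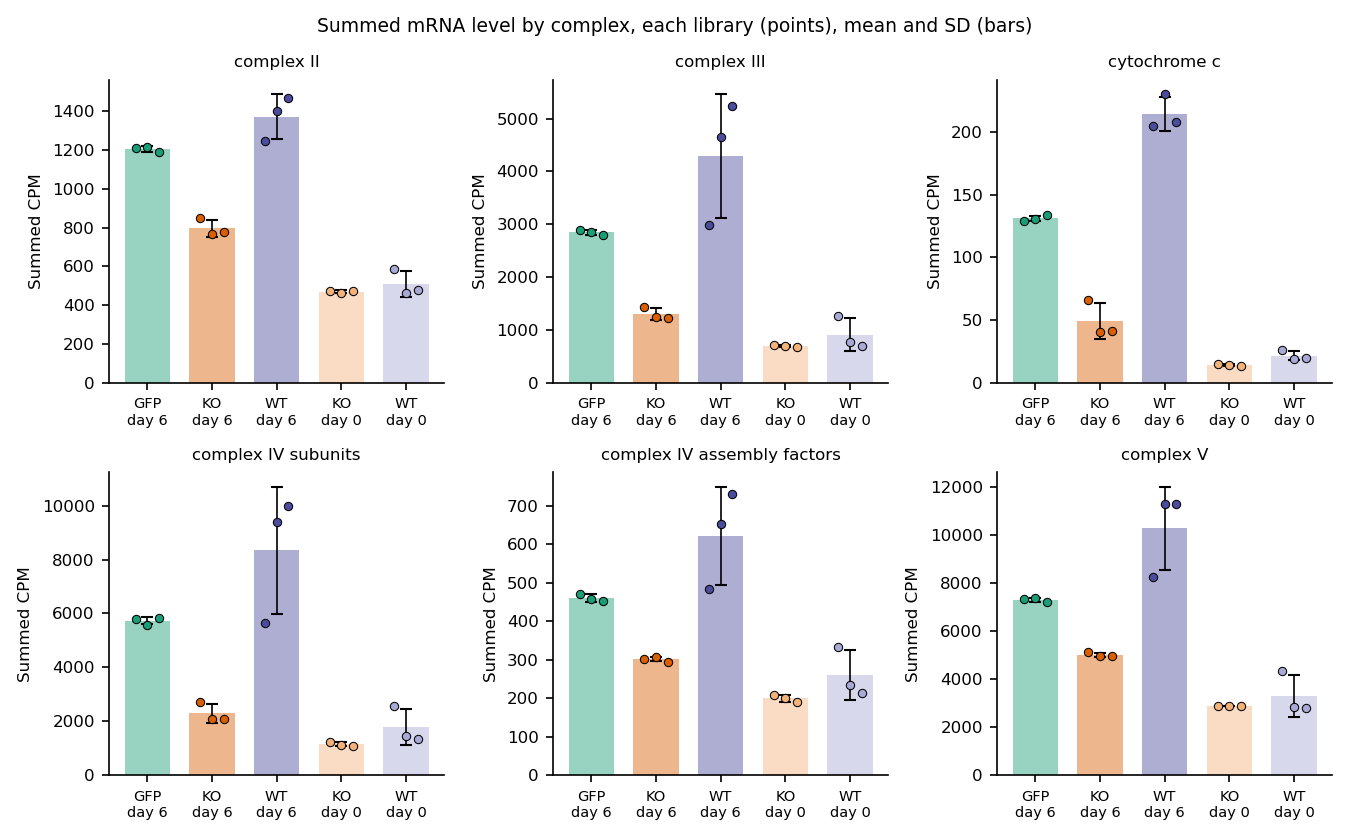
Summed CPM of each class of members in the 5 groups, with 1 point per library and bars for the mean and SD (n = 3). WT day 6 is the highest group by mean in each panel, with complex III at 2988 to 5238 CPM there, against 1228 to 1441 CPM in MIGA2-KO day 6 and 2797 to 2897 CPM in MIGA2-GFP day 6.

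MIGA2-KO cells also had more of these mRNAs after differentiation. At day 6, 38 of the 54 tested members were higher than in MIGA2-KO day 0 cells and 0 were lower, where 23.3% of all genes were higher and 21.0% lower. The median was 0.78, against 0.02 for all genes. All 4 complex II genes, 8 of 9 complex III genes, Cycs and 12 of 13 complex IV subunits rose, while 5 of 9 assembly factors and 8 of 16 complex V genes did. Cycs was at 66.0, 40.5 and 41.1 CPM in MIGA2-KO day 6 libraries, against 14.7, 14.1 and 13.2 CPM in MIGA2-KO day 0 libraries. The highest of these was the library labelled MIGA2-KO day 6 replicate 1, and the log2 fold change was 1.81 ± 0.18 (edgeR quasi-likelihood adjusted p = 9e-07). Sdha was at 367, 339 and 346 CPM in MIGA2-KO day 6 libraries, against 182, 190 and 198 CPM in MIGA2-KO day 0 libraries, a log2 fold change of 0.88 ± 0.08. Cox15, which makes heme A for complex IV, rose among the assembly factors by a log2 fold change of 0.93 ± 0.19. White adipocyte markers rose as well, 7 of 7, to a summed 5256 to 7765 CPM in MIGA2-KO day 6 libraries, against 52.9 to 54.5 CPM in MIGA2-KO day 0 libraries. Of the 6 preadipocyte and fibroblast markers 3 fell and 1 rose, and their summed levels overlapped. The part of either list in the result was not tested. Without the 3 libraries, 46 members were higher and 1 lower, and with GC and length offsets 3 of 9 assembly factors rose.

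The difference between the responses was tested directly as an interaction. For 31 of the 54 members the change over time was smaller in the knockout, and for 0 it was larger, where 13.6% of all genes had a lower response and 13.7% a higher one. The median difference was −0.93 on the log2 scale, against 0.02 for all genes. All 9 complex III genes and Cycs passed, as did 3 of 4 complex II genes, 9 of 13 complex IV subunits, 3 of 9 assembly factors and 6 of 16 complex V genes. Uqcrc2, a core subunit of complex III, was at 154, 126 and 131 CPM in MIGA2-KO day 6 libraries and 84.4, 83.0 and 85.6 CPM in MIGA2-KO day 0 libraries, against 308, 254 and 275 CPM in WT day 6 libraries and 70.3, 69.9 and 79.8 CPM in WT day 0 libraries. At day 0 its MIGA2-KO libraries lay above all WT libraries, a difference that was not called, and at day 6 they lay below all WT libraries. The responses differed by −1.23 ± 0.15 (edgeR quasi-likelihood adjusted p = 3.1e-05). Uqcrq, another complex III subunit, had the lowest value at −1.67 ± 0.52, and Cox6a1 followed at −1.58 ± 0.40. The Uqcrq difference did not pass in each alternative run, while that of Cox6a1 did. Leaving out WT day 0 replicate 2, WT day 6 replicate 2 or 3, or MIGA2-KO day 6 replicate 2 or 3 left 17 to 19 members. Leaving out the 3 libraries that stood apart gave 48 lower and 1 higher. The response over time was also lower in MIGA2-KO for 3 of 7 white adipocyte markers and higher for 3 of 6 preadipocyte and fibroblast markers, and their part in the result was not tested.

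**Figure D3:**
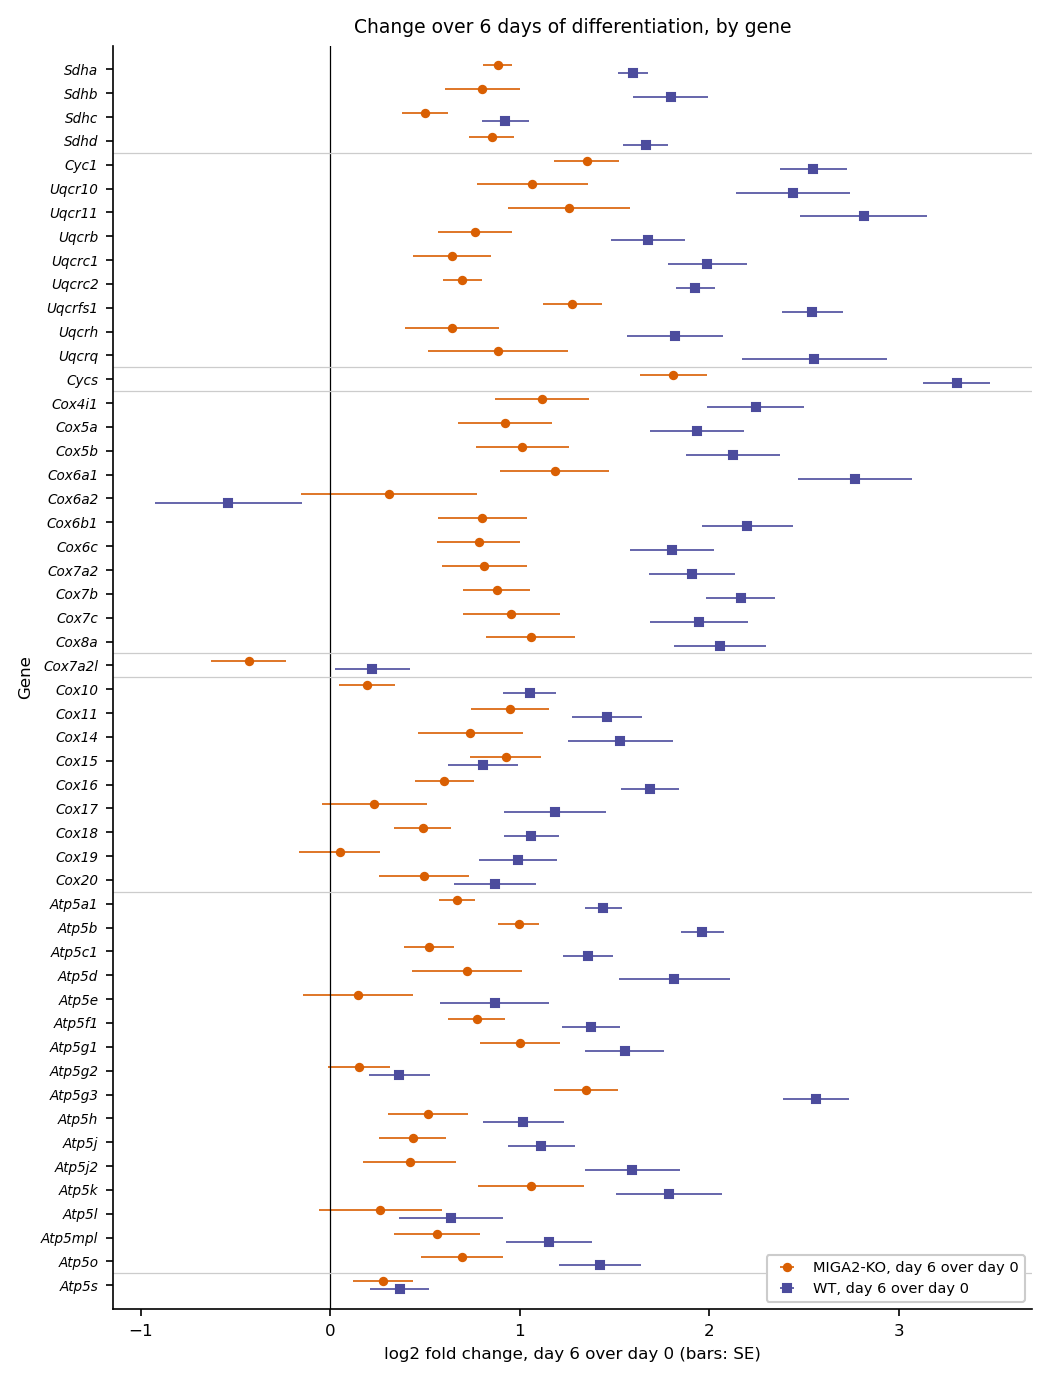
log2 fold change from edgeR of each tested member, day 6 over day 0, in MIGA2-KO cells (circles) and WT cells (squares), with SE bars and grey lines between classes. Cox8b and Cox7a1 are left out because of counts near 0 at day 0. Cycs lies at 1.81 in MIGA2-KO and 3.31 in WT cells, and Cox15 is the member whose MIGA2-KO value, 0.93, is above a WT value that also passed, 0.81.

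At day 6, 50 of the 54 members were lower in MIGA2-KO cells than in WT cells, and 0 were higher, where 31.5% of all genes were lower and 29.2% higher. The median log2 fold change was −1.43, against −0.01 for all genes. All members together made up 10628, 9547 and 9537 CPM in MIGA2-KO day 6 libraries, against 19009, 27888 and 29201 CPM in WT day 6 libraries. The groups did not overlap. White adipocyte markers were lower too, all 7 of them, at a summed 5256 to 7765 CPM in MIGA2-KO day 6 libraries, against 24749 to 32229 CPM in WT day 6 libraries. Preadipocyte and fibroblast markers summed to 10826 to 18603 CPM in MIGA2-KO day 6 libraries, against 5223 to 5702 CPM in WT day 6 libraries, with 4 of 6 higher and 1 lower. Their part in the result was not tested. The comparison shares its MIGA2-KO and WT day 6 libraries with those above, so it is no separate support for them.

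Within that comparison all of complex II, all of complex III and Cycs were lower, with 12 of 13 complex IV subunits, 8 of 9 assembly factors and 15 of 16 complex V genes. Class medians were −0.71 for complex II, −1.69 for complex III, −1.85 for complex IV subunits, −1.22 for assembly factors and −1.20 for complex V. With GC and length offsets they were −0.59, −0.86, −0.97, −0.73 and −0.48 in that order, with 5 of 9 assembly factors lower. Cycs differed by −2.12 ± 0.17 (edgeR quasi-likelihood adjusted p = 2.1e-07), with its values given above far apart. Cox7b was at 171, 153 and 160.2 CPM in MIGA2-KO day 6 libraries, against 580, 816 and 695 CPM in WT day 6 libraries, a difference of −2.11 ± 0.18. Sdhb, the iron-sulfur subunit of complex II, was at 80.7, 65.9 and 66.2 CPM in MIGA2-KO day 6 libraries, against 156, 233 and 263 CPM in WT day 6 libraries. Its difference of −1.61 ± 0.20 was −0.77 with GC and length offsets. Atp5a1, the alpha subunit of complex V, differed by −0.99 ± 0.10.

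The 4 members not called between MIGA2-KO and WT at day 6 were Cox15, Cox6a2, Atp5g2 and Atp5s. Cox15 was at 65.4, 75.8 and 71.4 CPM in MIGA2-KO day 6 libraries, against 90.7, 59.6 and 57.3 CPM in WT day 6 libraries, so the groups overlapped through WT replicate 1, which lies highest. Its difference was 0.03 ± 0.18, and it was called higher, at 0.35, without the 3 libraries. With GC and length offsets 43 members were lower and 1, Atp5g2, was higher, the median was −0.78, and Sdhd and Cox7a2l turned to 0.11 and 0.08. Without the 3 libraries, 52 were lower and 1 higher, with a median of −1.64.

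**Figure D4:**
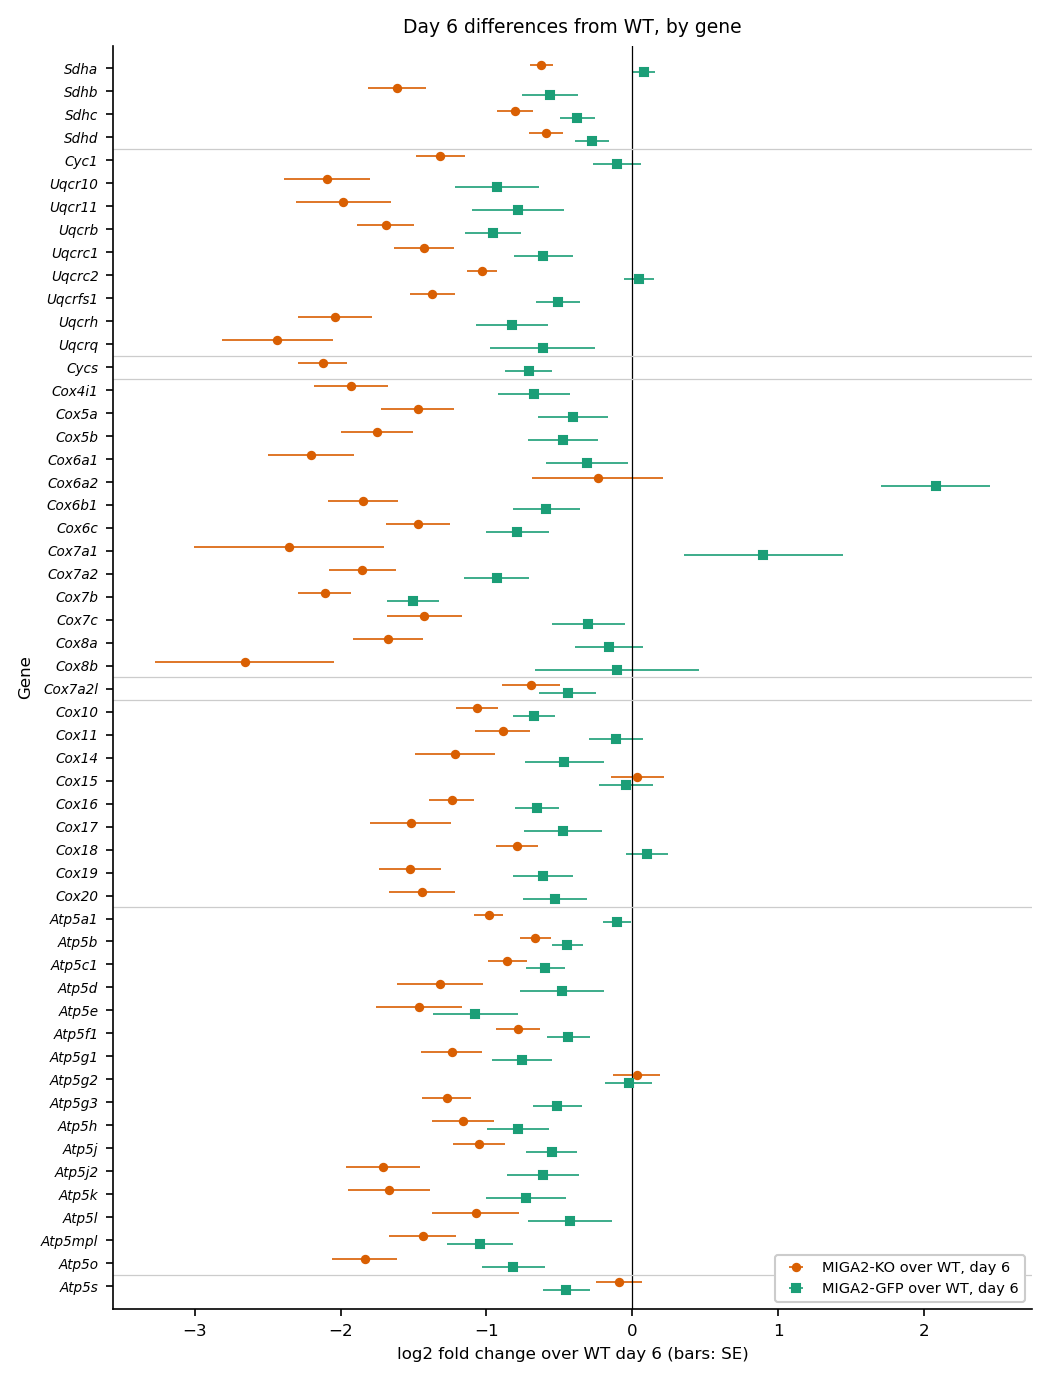
log2 fold change from edgeR of each tested member over WT day 6, for MIGA2-KO (circles) and MIGA2-GFP (squares), with SE bars and grey lines between classes; both use the same WT libraries. MIGA2-KO values lie left of 0 for 52 of 54 members, and in MIGA2-GFP Cox6a2, at 2.08, lies to the right.

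MIGA2-GFP cells at day 6 were lower than WT cells for 26 of the 54 members and higher for 1, Cox6a2, where 18.9% of all genes were lower and 16.5% higher. The median was −0.51, against 0.00 for all genes. All members together made up 18018, 17785 and 17801 CPM in MIGA2-GFP day 6 libraries, against 19009, 27888 and 29201 CPM in WT day 6 libraries. The MIGA2-GFP values were nearly equal and just below WT replicate 1, the lowest WT library. The count rests on which WT libraries are used: 9 were lower without WT day 6 replicate 2, 16 without replicate 3 and 39 without replicate 1. Leaving out MIGA2-GFP day 6 replicate 1, 2 or 3 gave 16, 15 and 14. It was 17 lower and 6 higher with GC and length offsets, and 47 lower and 3 higher without the 3 libraries. White adipocyte markers summed to 14416 to 15498 CPM in MIGA2-GFP day 6 libraries, against 24749 to 32229 CPM in WT day 6 libraries, with 5 of 7 lower and 0 higher. Preadipocyte and fibroblast markers summed to 5815 to 6126 CPM in MIGA2-GFP day 6 libraries, against 5223 to 5702 CPM in WT day 6 libraries. Of these 6 markers 2 were higher and 2 lower. The part of either list in the result was not tested.

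In this comparison 2 of 4 complex II genes, 5 of 9 complex III genes, Cycs, 4 of 13 complex IV subunits, 3 of 9 assembly factors, 10 of 16 complex V genes and Atp5s were lower. With GC and length offsets 0 complex II genes, 3 complex III genes and 6 complex V genes were lower, and Atp5s was not called. Cox7b was lowest, at 239, 249 and 249 CPM in MIGA2-GFP day 6 libraries, against 580, 816 and 695 CPM in WT day 6 libraries. These did not overlap, and the log2 fold change was −1.50 ± 0.18 (edgeR quasi-likelihood adjusted p = 4.9e-05). Uqcrb, which binds near the ubiquinone site of complex III, differed by −0.96 ± 0.19, and Atp5mpl, a small proteolipid of complex V, by −1.04 ± 0.23. Atp5e, the epsilon subunit, differed by −1.08 ± 0.29, a call lost without WT day 6 replicate 2. Cox10, the farnesyltransferase that starts heme A synthesis, differed by −0.67 ± 0.14. Sdha was at 574, 575 and 563 CPM in MIGA2-GFP day 6 libraries, against 547, 531 and 544 CPM in WT day 6 libraries. The MIGA2-GFP libraries lay above all WT libraries for it, and it was not called.

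Before differentiation, the knockout had lower levels of 17 of the 54 members and a higher level of 1, Atp5b, relative to WT, where 17.7% of all genes were lower and 16.1% higher. The median was −0.45, against −0.03 for all genes. All members together made up 5699, 5579 and 5485 CPM in MIGA2-KO day 0 libraries, against 9382, 5940 and 5678 CPM in WT day 0 libraries. WT replicate 3 lay within the range of the MIGA2-KO libraries, WT replicate 2 just above it and WT replicate 1 far above. Only 5 members were lower without WT day 0 replicate 1 and 26 without replicate 3, and leaving out MIGA2-KO day 0 replicate 1, 2 or 3 gave 8, 8 and 5. With GC and length offsets 9 were higher and 9 lower, and without the 3 libraries 7 were higher and 23 lower.

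Some day 0 differences did not hang on that library. Atp5o, the stalk subunit that joins the catalytic head of complex V to its base, was at 105, 111 and 109.8 CPM in MIGA2-KO day 0 libraries, against 334, 185 and 183 CPM in WT day 0 libraries. The groups were apart, with a log2 fold change of −1.11 ± 0.22 (edgeR quasi-likelihood adjusted p = 0.0017) that passed in each alternative run. Cox7b at −0.82 ± 0.18, Uqcrb at −0.78 ± 0.19 and the assembly factor Cox20 at −1.07 ± 0.23 likewise passed in each. However, 91.1% of annotated Cox20 exon lies opposite Hnrnpu. Of annotated Atp5o exon, 12.3% is shared with a gene on the same strand and up to 18.1% lies opposite another. Atp5o, Cox7b, Uqcrb and Cox20 each have at least 1 near-identical pseudogene, so their counts are uncertain. Atp5b was at 930.4, 919 and 931 CPM in MIGA2-KO day 0 libraries, against 867, 679 and 703 CPM in WT day 0 libraries. Its difference of 0.31 ± 0.11 lost its call in 9 of the 15 alternatives, the count-filter, block and single-group fits among them.

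Ranked by group means, WT day 6 was the highest group for 47 of the 54 members, and MIGA2-KO day 0 was the lowest for 47. The commonest order, shared by 31 members, was WT day 6, MIGA2-GFP day 6, MIGA2-KO day 6, WT day 0 and MIGA2-KO day 0. In 11 more, WT day 0 was above MIGA2-KO day 6. All MIGA2-GFP day 6 libraries lay below all WT day 6 libraries for 30 of 54 members, where 25.1% of all tested genes were separated that way. All MIGA2-KO day 0 libraries lay below all WT day 0 libraries for 24 members, against 25.6% of all tested genes, and all MIGA2-KO day 6 libraries lay below all WT day 6 libraries for 50, against 31.7%.

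Complex IV carries isoforms that muscle and heart use in place of the widely expressed forms. Cox8b, the heart and muscle form of subunit VIII that is also known from brown fat, was at 76.4, 76.2 and 75.1 CPM in MIGA2-GFP day 6 libraries and 30.3, 4.04 and 4.62 CPM in MIGA2-KO day 6 libraries, against 44.8, 87.4 and 113 CPM in WT day 6 libraries. At day 0 it had 0 reads in all MIGA2-KO libraries, against 0.38, 0.03 and 0.08 CPM in WT libraries. In WT cells 2555 reads at day 6 stood against 11 at day 0, a ratio of 550 after scaling to library size, with a 95% exact interval of 307 to 1103 that covers counting error only. WT day 0 replicate 1 gave 8 of those 11 reads, and the fitted log2 fold change of 9.02 was 10.29 without it and 7.88 with GC and length offsets. In MIGA2-KO cells it was at least 162-fold higher at day 6, taking 3 reads over the day 0 group as the floor, and its replicate 1 library gave most of those reads. Taking Cox8b at its bound left the members' medians as given. The day 6 difference between MIGA2-KO and WT was −2.66 ± 0.61, and −4.23 without that library. Across the alternative runs it ranged from −4.51 to −1.31. Cox8a, the widely expressed form, was at 887, 807 and 930.1 CPM in MIGA2-GFP day 6 libraries and 326, 302 and 292 CPM in MIGA2-KO day 6 libraries, against 671, 1050 and 1218 CPM in WT day 6 libraries. Per kb of exon, Cox8b made up 12.9, 14.0 and 12.2% of the pair in MIGA2-GFP day 6 libraries and 13.8, 2.25 and 2.64% in MIGA2-KO day 6 libraries, against 10.3, 12.5 and 13.7% in WT day 6 libraries.

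Cox7a1, the muscle form of subunit VIIa, was at 16.7, 17.2 and 15.3 CPM in MIGA2-GFP day 6 libraries and 4.52, 0.16 and 0.52 CPM in MIGA2-KO day 6 libraries, against 5.70, 11.5 and 9.32 CPM in WT day 6 libraries. The MIGA2-KO libraries lay below all WT libraries, with a difference of −2.35 ± 0.65 (edgeR quasi-likelihood adjusted p = 0.0063). It was −4.66 when MIGA2-KO day 6 replicate 1, as labelled, was left out. Across the alternative runs it ranged from −4.89 to −1.13 and did not pass in each. The MIGA2-GFP libraries lay above all WT libraries, but the difference of 0.90 ± 0.54 was not called (edgeR quasi-likelihood adjusted p = 0.21). Cox6a2, the muscle form of subunit VIa, was at 4.78, 4.35 and 4.19 CPM in MIGA2-GFP day 6 libraries and 1.65, 0.33 and 0.70 CPM in MIGA2-KO day 6 libraries, against 0.81, 0.97 and 1.36 CPM in WT day 6 libraries. The MIGA2-GFP difference was 2.08 ± 0.37 (edgeR quasi-likelihood adjusted p = 0.00091) and passed in each alternative run, with values of 1.90 to 2.61. Cox6a2 stayed a trace form at 0.31 to 0.36% of the pair with Cox6a1 per kb of exon in MIGA2-GFP day 6 libraries, against 0.055 to 0.085% in WT day 6 libraries.

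Markers of other cell types moved in single libraries beside these isoforms. Cidea, a brown and beige adipocyte gene, was at 75.5, 73.4 and 76.9 CPM in MIGA2-GFP day 6 libraries and 13.3, 0.00 and 0.09 CPM in MIGA2-KO day 6 libraries, against 41.7, 55.5 and 58.5 CPM in WT day 6 libraries. Its one high MIGA2-KO value was in the library labelled MIGA2-KO day 6 replicate 1, which also had the highest Cox8b, Cox7a1, Cox6a2 and Miga2 of its group. The Cox8b and Cox7a1 differences given above were larger in size without it, but smaller in other alternative runs. The brown and beige list (Ucp1, Cidea, Dio2, Prdm16 and Elovl3) summed to 94.0 to 98.7 CPM in MIGA2-GFP day 6 libraries and 0.16 to 14.95 CPM in MIGA2-KO day 6 libraries, against 70.1 to 84.7 CPM in WT day 6 libraries. Its defining gene Ucp1 had 0 reads in every library. Of the 5 listed genes 2 were tested. Between MIGA2-GFP and WT at day 6, 0 of the 2 were called, and their median log2 fold change was 0.09. The higher Cidea values in MIGA2-GFP libraries therefore do not stand for the list. Both were lower in MIGA2-KO than in WT at day 6. The muscle list (Myh1, Myh4, Myh7, Acta1, Actc1, Ckm, Mb, Tnnt3 and Myog) summed to 103 CPM in MIGA2-KO day 6 replicate 3, with Acta1 at 22.6 and Ckm at 16.2 CPM, and to 0.91 to 3.98 CPM in the other day 6 libraries. In that library Cox8b, Cox7a1 and Cox6a2 were at 4.62, 0.52 and 0.70 CPM, from 53, 6 and 8 reads. MIGA2-KO day 6 replicate 2 had 49, 2 and 4 reads of them. So few reads of Cox7a1 and Cox6a2 cannot show whether these 2 libraries differ. Macrophage markers (Ptprc, Adgre1, Csf1r and Cd68) summed to at most 5.42 CPM, and Ptprc had 0 reads in every library.

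**Figure D5:**
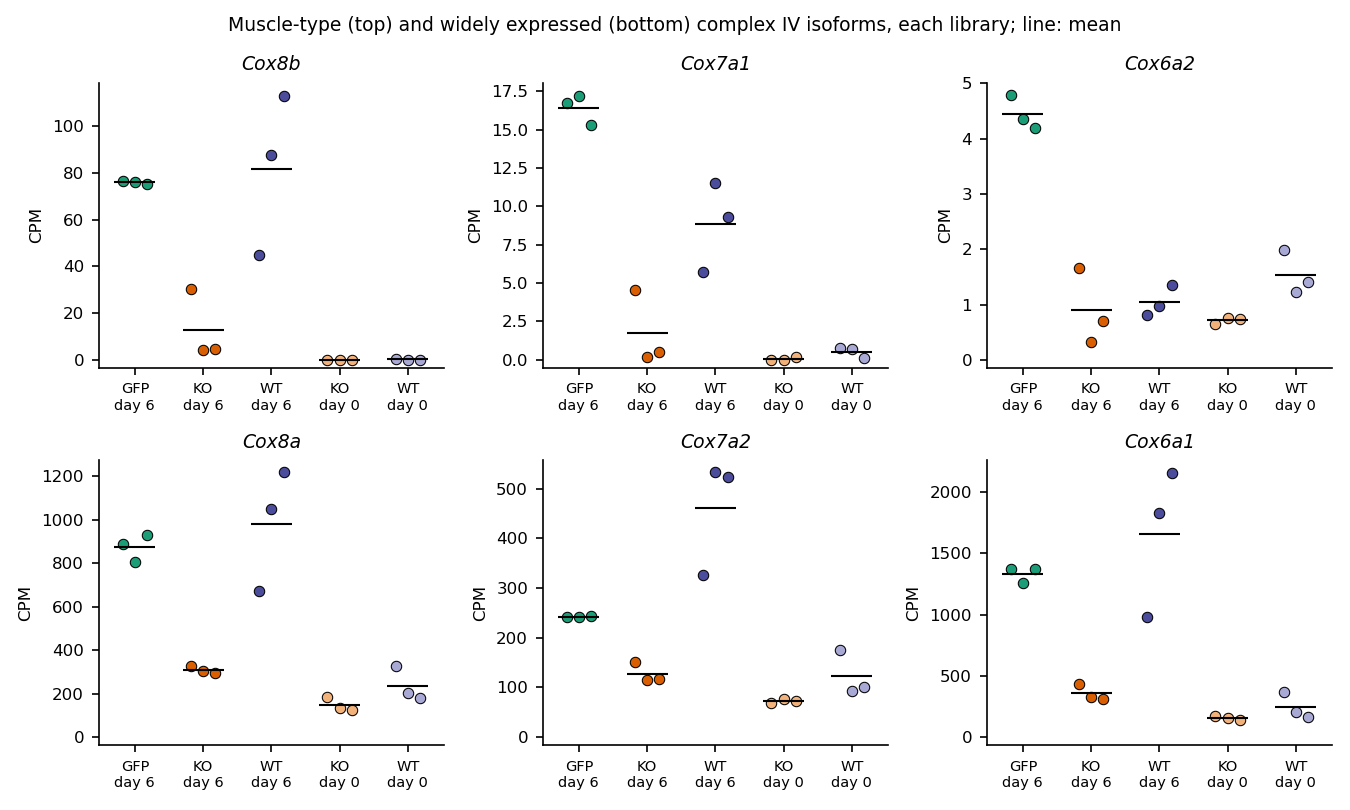
CPM of the muscle-type isoforms Cox8b, Cox7a1 and Cox6a2 (top) and of the widely expressed Cox8a, Cox7a2 and Cox6a1 (bottom) in each library of the 5 groups, with a line at the mean. The library labelled MIGA2-KO day 6 replicate 1 lies above the other 2 of its group in the top panels, at 30.3 CPM for Cox8b and 4.52 CPM for Cox7a1.

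Cox4i1 was at 699, 507 and 494 CPM in MIGA2-KO day 6 libraries, against 1420, 2434 and 2626 CPM in WT day 6 libraries, while Cox4i2, the hypoxia-linked form, was at 0.35, 0.25 and 0.26 CPM in MIGA2-KO day 6 libraries, against 0.54, 1.17 and 1.36 CPM in WT day 6 libraries. Cox4i2 was thus at most 0.104% of its pair per kb of exon in any library. Cox5a and Cox5b, which are different subunits and not alternative forms, differed by −1.47 ± 0.25 and −1.75 ± 0.25 between MIGA2-KO and WT cells at day 6. Cox6b1 differed by −1.85 ± 0.24, and its testis form Cox6b2 was counted in 1 MIGA2-GFP day 6 library and 1 WT day 0 library, at 0.09 and 0.19 CPM. Cox7b2, also a testis form, reached at most 0.68 CPM. Cox7a2 differed by −1.85 ± 0.23. Its relative Cox7a2l, which joins complexes III and IV into supercomplexes, was at 139.8, 139 and 148 CPM in MIGA2-KO day 6 libraries, against 168, 261 and 264 CPM in WT day 6 libraries. Its difference of −0.70 ± 0.20 was 0.08 with GC and length offsets.

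Complex V holds a ring of c subunits that is made from any of the genes Atp5g1, Atp5g2 and Atp5g3, which encode the same mature protein with different import signals. Atp5g3 was at 576, 515 and 515 CPM in MIGA2-KO day 6 libraries and 221, 205 and 204 CPM in MIGA2-KO day 0 libraries, against 1019, 1419 and 1440.1 CPM in WT day 6 libraries and 289, 189 and 179 CPM in WT day 0 libraries. It rose by 2.56 ± 0.17 in WT cells and 1.35 ± 0.17 in MIGA2-KO cells, and the responses differed by −1.21 ± 0.23 (edgeR quasi-likelihood adjusted p = 0.0016). Atp5g1 rose by 1.56 ± 0.21 in WT and 1.00 ± 0.21 in MIGA2-KO cells. Atp5g2 was at 74.2, 72.7 and 73.7 CPM in MIGA2-GFP day 6 libraries and 72.7, 77.4 and 79.0 CPM in MIGA2-KO day 6 libraries, against 54.4, 79.4 and 90.8 CPM in WT day 6 libraries. At day 0 it was at 72.5, 66.1 and 67.8 CPM in MIGA2-KO libraries, against 68.8, 59.2 and 46.6 CPM in WT libraries. All these ranges overlap or nearly touch, and it was called in 0 of the 6 comparisons, although with GC and length offsets its day 6 difference between MIGA2-KO and WT was 0.93 and passed. Per kb of exon Atp5g2 made up 13.4, 15.4 and 15.7% of the trio in MIGA2-KO day 6 libraries, against 6.16, 6.38 and 7.12% in WT day 6 libraries, and 28.4, 27.6 and 28.5% in MIGA2-KO day 0 libraries, against 21.3, 26.5 and 23.1% in WT day 0 libraries. Its share was lower at day 6 in both. The exon length of Atp5g1 includes long alternative exons, so the shares describe change between groups better than absolute makeup. Atp5g1 and Atp5g2 have 2 near-identical pseudogenes each.

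Promoters were read for the members where the reference gave them. RefSeq promoters (250 bases before to 50 after the start, GRCm38.p6, first entry per gene) were matched for 44 of the 57 members and searched on both strands for 4 motifs. The NRF1 motif GCGCATGC occurred in 8 of 44 (18.2%), against 5.7% of 9486 promoters of tested genes. The ETS motif CCGGAAG, bound by GABPA among others, occurred in 16 (36.4%), against 18.9%. The YY1 motif AAGATGGC occurred in 4 (9.1%), against 4.9%, and the ERR motif TCAAGGTCA in 2 (4.5%), Atp5g3 and Sdhd, against 0.2%. At least 1 motif lay in 22 members (50%), against 27.2%. Over all 27025 promoters in the table the shares were 2.8% for NRF1, 9.1% for ETS, 2.9% for YY1, 0.4% for ERR and 14.1% for any. A match describes letters in this window and is not a measured site.

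Of the promoters printed here, Cycs is shown as a member with a large change, Atp5g3, Atp5g1 and Atp5g2 as the c subunit paralogs and Cox8b and Cox8a as the isoform pair, each 5′ to 3′ on the strand of its gene with motif matches in capitals. Cycs (chr6:50566520-50566819, minus strand) holds 1 NRF1 match, Atp5g3 (chr2:73911277-73911576, minus) 1 ERR match, Atp5g2 (chr15:102670998-102671297, minus) an NRF1 match on each strand that overlap, and Cox8a (chr19:7217567-7217866, minus) 2 ETS matches. Atp5g1 (chr11:96075582-96075881, minus) and Cox8b (chr7:140900397-140900696, minus) hold none of the 4 motifs.
Cycs: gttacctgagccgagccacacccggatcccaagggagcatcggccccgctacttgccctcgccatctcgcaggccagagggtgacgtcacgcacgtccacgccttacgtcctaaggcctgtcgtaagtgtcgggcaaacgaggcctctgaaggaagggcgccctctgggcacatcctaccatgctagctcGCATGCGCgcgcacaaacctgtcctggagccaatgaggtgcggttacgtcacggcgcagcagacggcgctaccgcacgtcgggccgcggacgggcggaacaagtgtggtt
Atp5g3: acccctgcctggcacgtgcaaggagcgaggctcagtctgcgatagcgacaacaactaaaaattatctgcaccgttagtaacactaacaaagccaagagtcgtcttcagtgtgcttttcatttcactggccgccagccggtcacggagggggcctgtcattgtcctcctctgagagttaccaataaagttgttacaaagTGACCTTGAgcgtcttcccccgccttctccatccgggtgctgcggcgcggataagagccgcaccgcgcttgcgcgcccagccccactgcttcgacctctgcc
Atp5g1: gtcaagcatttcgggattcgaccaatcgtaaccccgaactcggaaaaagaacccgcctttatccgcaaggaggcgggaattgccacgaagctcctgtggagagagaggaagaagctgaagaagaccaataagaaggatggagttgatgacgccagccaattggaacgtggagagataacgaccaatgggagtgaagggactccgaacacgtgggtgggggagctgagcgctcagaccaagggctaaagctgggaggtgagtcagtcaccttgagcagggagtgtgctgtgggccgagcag
Atp5g2: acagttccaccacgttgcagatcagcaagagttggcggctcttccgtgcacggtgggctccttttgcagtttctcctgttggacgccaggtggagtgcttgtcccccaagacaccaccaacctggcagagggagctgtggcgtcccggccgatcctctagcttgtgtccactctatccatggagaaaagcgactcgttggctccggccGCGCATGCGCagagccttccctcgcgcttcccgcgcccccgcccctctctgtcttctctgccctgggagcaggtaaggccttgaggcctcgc
Cox8b: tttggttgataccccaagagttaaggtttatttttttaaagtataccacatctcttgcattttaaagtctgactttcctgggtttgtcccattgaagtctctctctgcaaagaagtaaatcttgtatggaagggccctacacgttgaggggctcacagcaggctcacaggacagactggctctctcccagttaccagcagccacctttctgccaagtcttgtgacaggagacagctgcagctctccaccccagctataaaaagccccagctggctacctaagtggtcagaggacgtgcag
Cox8a: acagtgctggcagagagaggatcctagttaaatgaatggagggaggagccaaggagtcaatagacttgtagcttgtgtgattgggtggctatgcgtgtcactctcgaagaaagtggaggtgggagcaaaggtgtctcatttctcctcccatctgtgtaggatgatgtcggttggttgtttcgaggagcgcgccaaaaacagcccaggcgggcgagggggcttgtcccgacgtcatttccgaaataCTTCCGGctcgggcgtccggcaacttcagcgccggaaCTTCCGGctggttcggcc

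Genes of the same pathway outside the symbol rule were read from lists. Of 30 assembly factors such as Surf1, Sco1, Coa6 and Atpaf1, 19 rose and 1 fell in WT cells over time, and 9 rose and 2 fell in MIGA2-KO cells, where 31.7% of all genes rose and 33.1% fell in WT cells and 23.3% rose and 21.0% fell in MIGA2-KO cells. The MIGA2-KO count of 9 is near that background. Between MIGA2-KO and WT, 20 were lower and 2 higher at day 6, and 13 lower and 4 higher at day 0, where 31.5% and 17.7% of all genes were lower. MIGA2-GFP cells had 13 lower and 1 higher than WT cells at day 6, where 18.9% of all genes were lower. The responses over time differed for 7, all lower in MIGA2-KO, where 13.6% of all genes had a lower response. Of those named here, chosen after their values were seen, Higd1a, a small inner membrane protein linked to complex IV, differed by −2.31 ± 0.18 between MIGA2-KO and WT at day 6. Pet117, a complex IV assembly factor, went the other way in that comparison at 2.25 ± 0.30. Atpif1, which encodes the protein that inhibits ATP hydrolysis by complex V, was at 37.0, 32.0 and 32.0 CPM in MIGA2-KO day 6 libraries, against 50.5, 77.9 and 71.8 CPM in WT day 6 libraries. Its WT change over time of −0.39 was not called, while its MIGA2-KO change of −0.64 and its day 6 difference of −0.99 were.

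Of the 6 mitochondrially encoded subunits of complexes III to V, mt-Co2, mt-Co3, mt-Atp6 and mt-Atp8 had very low counts. They reached at most 1.16 CPM in any library, and mt-Atp8 at most 0.26 CPM. Counts so far below those of mt-Cytb and mt-Co1 may not reflect the mRNA level, which was not tested. No level change is described for these 4. Of them only mt-Atp6 passed the count filter, and its call as higher in WT cells over time rests on such near-zero counts. mt-Cytb, the cytochrome b of complex III, was at 15643, 10041 and 10010 CPM in MIGA2-KO day 6 libraries, against 37788, 31373 and 24778 CPM in WT day 6 libraries, a difference of −1.40 ± 0.18. mt-Co1, the catalytic subunit of complex IV, was at 26219, 26880 and 26734 CPM in MIGA2-KO day 6 libraries, against 43023, 23027 and 20712 CPM in WT day 6 libraries. Those groups overlapped, and its difference of −0.12 ± 0.24 was not called. Over time, mt-Cytb and mt-Co1 rose by 2.32 and 1.85 in WT cells and by 0.47 and 1.02 in MIGA2-KO cells. The response of mt-Cytb was smaller in MIGA2-KO cells, by −1.85 ± 0.25. At day 0 mt-Co1 was higher in MIGA2-KO cells by 0.71, and neither gene was called in MIGA2-GFP cells.

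Of 12 tested regulators of respiratory genes, 5 rose and 4 fell in WT cells over time, where 31.7% of all genes rose and 33.1% fell. In MIGA2-KO cells 6 rose and 1 fell over time, where 23.3% of all genes rose and 21.0% fell. Between MIGA2-KO and WT at day 6, 4 were higher and 3 lower, where 29.2% of all genes were higher and 31.5% lower. At day 0, 1 was higher and 1 lower, where those shares were 16.1% and 17.7%. In MIGA2-GFP cells 1 was higher than in WT and 0 were lower, where 16.5% of all genes were higher and 18.9% lower. The responses over time of 2 were larger and of 1 smaller in MIGA2-KO, where 13.7% and 13.6% of all genes were. Ppargc1a, the coactivator PGC-1α, was at 9.65, 11.04 and 9.93 CPM in MIGA2-KO day 6 libraries, against 2.17, 1.07 and 1.16 CPM in WT day 6 libraries, opposite in direction to the members. Its difference was 2.78 ± 0.35 (edgeR quasi-likelihood adjusted p = 1.6e-05). Ppargc1b was at 4.43, 4.45 and 4.96 CPM in MIGA2-KO day 6 libraries, against 4.79, 4.00 and 5.34 CPM in WT day 6 libraries, and rose in both by 2.85 and 3.28. Esrra, the nuclear receptor ERRα, was at 38.4, 40.9 and 38.1 CPM in MIGA2-KO day 6 libraries, against 58.9, 89.5 and 119 CPM in WT day 6 libraries, a difference of −1.19 ± 0.21.

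For 20 of the 57 members the annotation holds at least 1 pseudogene with 95% identity over 100 bases or more, and the count files hold none of these pseudogenes. For 16 members some exon lies opposite another gene. The libraries were made with a stranded kit, but the sources used here do not say whether counting used strand, so reads of such pairs may not be told apart.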

How the data were processed

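RNA-seq was run on total RNA with a stranded kit, per the labels' protocols. The deposited files hold whole-number counts per gene, made by the authors with bcl2fastq 2.19, Trimmomatic, STAR 2.5.4b and featureCounts on GRCm38.p5, per the submitters' processing notes; the role of edgeR, also named there, is not given. Whether counting used strand is not stated. Of 25700 identifiers, 25664 matched GENCODE vM21.

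All 15 libraries entered 1 edgeR 4.0.16 quasi-likelihood fit (R 4.3.3) with 5 group means, TMM factors and edgeR's expression filter (minimum count 10), which left 12279 genes. Depth was 10748668 to 26003871 counts, and the common biological coefficient of variation was 15.96%. Contrasts were day 6 against day 0 in each genotype, MIGA2-KO against WT at each day, the fusion cells against WT (day 6 only), and the genotypes' difference in change over time. Adjusted p-values are Benjamini-Hochberg over all genes. Alternatives used DESeq2 1.42.0, other scalings, no filter, the compared groups alone, a replicate block, GC and length offsets, and left-out libraries. The fit was tested on simulated data. Near-identical pseudogenes were found with blastn 2.17.0. No 2 replicates agreed within counting noise. Members named with values were, per comparison, the smallest adjusted p in each class and the 2 highest and 2 lowest log2 fold changes, plus isoform families, the highest level per length in each class, and any member called against the majority. Members and lists were chosen with earlier results of these data known.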

Additional observations from a re-analysis of the deposited data

Results flagged for a closer look

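The change over time in MIGA2-KO cells minus that in WT cells differed from 0 by an interaction test (edgeR quasi-likelihood, log2 scale) for these named genes. In complex II the difference was −0.71 for Sdha and −0.81 for Sdhd. In complex III it was −1.55 for Uqcr11, −1.23 for Uqcrc2 and −1.67 for Uqcrq. Among complex IV subunits it was −1.13 for Cox4i1, −1.01 for Cox5a, −1.11 for Cox5b, −1.58 for Cox6a1, −1.40 for Cox6b1, −1.10 for Cox7a2, −1.29 for Cox7b and −0.999 for Cox8a. For the assembly factor Cox16 it was −1.09, and in complex V it was −0.97 for Atp5b and −1.21 for Atp5g3. All are negative.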

How the results depend on the processing

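Counts of members are given as higher and lower. Library totals alone, which moved the median of all genes by −0.43 in the WT time course, 0.24 between MIGA2-KO and WT at day 6 and 0.39 in the difference of changes, gave 46 and 1 for WT over time, 0 and 26 for MIGA2-KO against WT at day 0, 2 and 16 for MIGA2-GFP against WT, and 0 and 17 for the difference of changes. The unfiltered fit gave 0 higher at day 0. With the compared groups alone the counts were 43 and 1 for MIGA2-KO over time, 0 and 9 at day 0 and 2 higher for MIGA2-GFP. With GC and length offsets they were 3 lower for WT over time, 1 lower for MIGA2-KO over time, 9 and 9 at day 0, 1 higher at day 6, 6 and 17 for MIGA2-GFP, and 1 higher for the difference; with the replicate block added they were 3, 1, 9 and 8, 1, and 6 and 14. The replicate block alone gave 0 and 13 at day 0, 21 lower for MIGA2-GFP, and 49, 36, 50 and 29 elsewhere. Deviations of same-numbered samples correlated at −0.72 to 0.12 over 30 pairs, 2 of them over 0.1, so the numbers were not taken to pair the samples; between WT day 6 and WT day 0 all 3 were negative. Without the 3 libraries the counts were 46 and 1, 7 and 23, 1 and 52, 3 and 47, and 1 and 48, in the order of MIGA2-KO over time, day 0, day 6, MIGA2-GFP and the difference. Leaving out 1 library gave 48 to 54 higher for WT over time, 33 to 38 for MIGA2-KO over time, 0 to 2 higher and 5 to 26 lower at day 0, 50 to 51 lower at day 6, 9 to 39 lower for MIGA2-GFP and 17 to 45 for the difference. Signs reversed for Cox7a2l in WT over time (−0.17 with library totals, −0.38 with offsets, −0.39 with offsets and block), Cox19 in MIGA2-KO over time (−0.074 with offsets, −0.072 with the block too, −0.030 to 0.13 with 1 library left out), and, at day 6 in MIGA2-KO against WT, Cox15 (−0.20 and −0.21 with offsets, −0.075 to 0.28 with 1 library left out), Cox7a2l (0.083 and 0.084), Sdhd (0.11 in both) and Atp5g2 (−0.15 to 0.20 with 1 library left out, −0.15 being without WT day 6 replicate 1, and −0.10 without the 3 libraries). They also reversed for Atp5g3 in MIGA2-GFP against WT (0.0022 and 0.0014 with offsets) and, in the difference of changes, Cox8b (−0.038 to 1.97 with 1 library left out, the lowest without MIGA2-KO day 6 replicate 1, and −1.64 without the 3 libraries) and Cox6a2 (−0.30 without the 3 libraries). Of the other values of single genes, 1580 kept direction and call, 147 lost the call and 21 gained it. The cause was not tested.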
